A study of Arabidopsis thaliana with 6 samples.

Results

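The genes described here are the 200 nuclear genes with the brightest array signal in wild-type Arabidopsis leaves. Of the probe sets that the array's gene table pairs with 1 gene on a nuclear chromosome, the brightest per gene was kept, and 13212 genes were ranked by the mean linear signal of the 3 wild-type arrays. CHLM, PORB, HEMB1, COR15B and COR47 were left out of that ranking by name, 3 of them from within its first 200 places. The study looked for genes that act downstream of STO2. It compared 3 arrays of the sto2 null mutant with 3 arrays of the wild type, Col-0, and called each set biological replicates. Plants of both genotypes were 3 weeks old, stood in soil with 16 h of light at 22 °C and 8 h of dark at 18 °C, and gave leaves 3 to 6 for total RNA. The labels do not give the locus of STO2 or the sequence change in the mutant, so the mutated gene itself was not examined here. Because wild-type signal chose the genes, their wild-type levels are a description, and every difference between sto2 and wild type below uses the same wild-type values on one side.

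A green leaf spends much of its messenger RNA on the chloroplast. The antenna proteins capture light and pass its energy to the photosystems in the thylakoid membrane, whose electron flow drives the ATP synthase and reduces NADP. The Calvin cycle in the stroma uses that ATP and NADPH to fix carbon dioxide, while photorespiration recovers carbon lost when Rubisco takes up oxygen. The proteins of these steps are made partly from plastid genes and partly from nuclear genes, and only the nuclear ones are ranked here.

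The values were linear probe-set signals, and the precision rests on 3 arrays per genotype. Array medians lay between 37.0 and 38.55. The 200 genes averaged 1325.8 at the median in wild type, against 28.3 for the other ranked genes, and single readings ran between 432 and 5503.4. Probe sets differ in how well they bind their transcript, so a place in this ranking is not an order of transcript copies. The ranking also covers only part of the bright signal: 643 probe sets read at or above the dimmest of the 200 in wild type, and 388 of them (60.3%) were not in the gene table, 27 were plastid genes and 24 matched several genes. Of the mesophyll markers, LHCB4.1, RCA and PRK were all among the 200, and RBCS1A and CAB1 had no matched probe set. The shoot apex markers CLV3 and UFO read at most 5.8 on any array, and the root markers PYK10 and EXP7 at most 17.9. Among guard cell lineage markers, SPCH and MUTE read at most 15.5, while FAMA averaged 66.8 in sto2 and 67.3 in wild type. STM, SUC2 and the seed, pollen and xylem markers were unmatched. In whole leaves, fewer cells of a type and less RNA per cell cannot be told apart.

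A descriptive name was available for 51 of the 200 genes, and the other 149 carried a locus name only and are given no function here. Photosynthesis led the named genes. Of the first 10 places 7 had a name, and all 7 belonged to the antenna, the photosystems, other thylakoid proteins or carbon fixation. Of the first 20 places 13 had a name and 12 of those were photosynthetic, counting pigment synthesis. Over the first 50 places the count was 16 of 25, and over all 200 it was 20 of 51 (39.22%). The brighter the slice, the more its named genes were photosynthetic. These counts cover the named genes only, so the process that holds most of the 200 was not determined.

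The 7 named genes of the antenna and photosystems all lay in the first 20 places. LHCB4.1 (AT5G01530, chromosome 5), which encodes the minor antenna protein CP29 of photosystem II, was the brightest of the 200 and read 5228, 5503 and 5354 in sto2, against 5210.4, 5302 and 4903 in wild type. LHCB4.2 (AT3G08940, chromosome 3), the second CP29 gene, read 4283, 4010.2 and 4166 in sto2, against 4675, 4413 and 4388 in wild type. The LHCB4.1 readings of the genotypes overlapped, whereas all 3 LHCB4.2 readings in sto2 lay below all 3 in wild type. Their differences, sto2 minus wild type on the log2(signal + 16) scale, were 0.062 ± 0.071 and -0.11 ± 0.071 (SE). In limma, with Benjamini-Hochberg adjustment over all 22746 probe sets, the adjusted p was 0.767 for LHCB4.1 and 0.533 for LHCB4.2.

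PSAE-1 (AT4G28750, chromosome 4) encodes subunit E on the stromal side of photosystem I and read 3470.2, 3811 and 3769 in sto2, against 3711, 3644 and 3465 in wild type. PSAN (AT5G64040, chromosome 5) encodes the lumenal subunit N of the same photosystem and read 2905, 2843 and 2973 in sto2, against 3277, 3360.3 and 2898 in wild type. The PSAE-1 readings were interleaved. For PSAN wild-type replicate 3 lay among the sto2 readings and the other 2 wild-type arrays stood above them. The log2 differences were 0.03 ± 0.075 for PSAE-1 and -0.13 ± 0.083 for PSAN (SE).

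The other members of the group serve photosystem II. PSBY, a small membrane subunit, read 4064, 3995 and 4302 in sto2, against 4434, 4404 and 3983 in wild type. PSBW, another small subunit, read 2904, 2804 and 3063 in sto2, against 2823, 3038 and 3003 in wild type. PSB27, a factor for assembly and repair of the complex, read 2973, 3061 and 3163 in sto2, against 3471, 3004 and 3056 in wild type. All 3 genes had overlapping genotypes, and wild-type replicate 1 supplied both the highest PSB27 and the lowest PSBW reading of the wild type. Over the 7 genes the sto2 mean log2 level was higher for 2 and lower for 5, the differences ran between -0.13 and 0.062, and their median was -0.049. The signs of PSBY, PSBW and PSB27 turned positive under quantile normalization. None of the 7 passed the test, and the lowest adjusted p was 0.533 in limma.

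**Figure D1:**
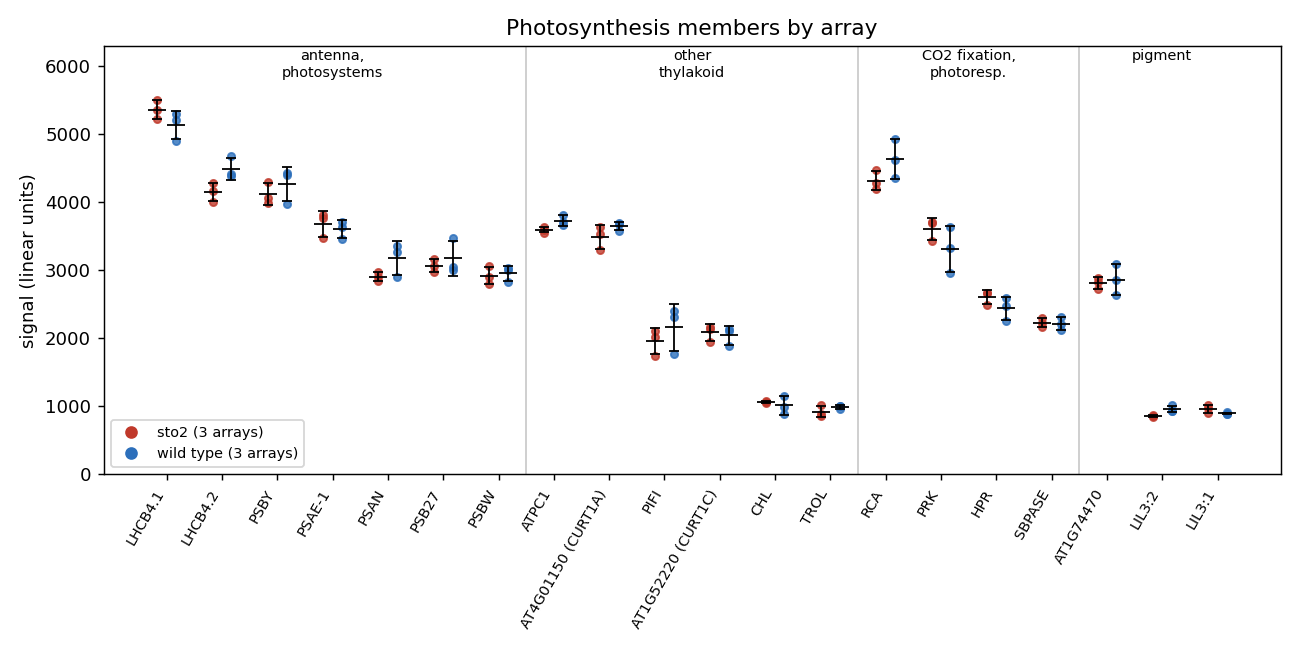
Signal in linear units for the 20 photosynthesis genes, grouped by role, with sto2 (red) left of wild type (blue); points are single arrays, the long bar is the mean and the whiskers are 1 SD over 3 arrays. The sto2 points lie below all wild-type points for LHCB4.2, ATPC1 and LIL3:2, and the genotypes overlap for the other genes.

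Other thylakoid proteins made up 6 of the named genes. ATPC1 (AT4G04640, chromosome 4), the gamma subunit of the chloroplast ATP synthase, read 3632, 3556 and 3597 in sto2, against 3718, 3817 and 3665 in wild type. AT4G01150, which encodes the thylakoid-curving protein CURT1A, read 3535, 3302 and 3633 in sto2, against 3694, 3682 and 3582 in wild type, and its relative AT1G52220 (CURT1C) read 2140.1, 1952 and 2172 in sto2, against 1891, 2103 and 2144 in wild type. ATPC1 was lower on every sto2 array than on any wild-type array, but by only -0.054 ± 0.066 (SE, log2), and both curvature genes overlapped. PIFI, a protein associated with chlororespiration, read 2018, 1743 and 2115 in sto2, against 1768, 2402 and 2318 in wild type. TROL, which tethers ferredoxin-NADP reductase to the thylakoid, read 887, 863 and 1018 in sto2, against 955, 1007 and 1013 in wild type. CHL, the chloroplast lipocalin that protects thylakoid lipids, read 1077, 1062 and 1053 in sto2, against 888, 997 and 1159 in wild type. For PIFI the lowest reading of each genotype, on sto2 replicate 2 and wild-type replicate 1, stood apart from the other pair. The log2 differences of the 6 genes lay between -0.13 and 0.076, 2 above 0 and 4 below it, and none passed the test.

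By the roles assigned by hand, carbon fixation and photorespiration held 4 of the named genes. RCA (AT2G39730, chromosome 2) encodes Rubisco activase, which clears inhibitors from Rubisco, and it was in place 2 with 4286, 4193 and 4469.9 in sto2, against 4933, 4621 and 4359 in wild type. PRK (AT1G32060, chromosome 1) encodes phosphoribulokinase, which makes the substrate of Rubisco, and read 3706, 3428 and 3689.8 in sto2, against 2963, 3645 and 3325 in wild type. RCA averaged lower in sto2 and PRK higher, and in both the genotypes overlapped, PRK having its lowest reading on wild-type replicate 1. SBPASE, sedoheptulose-1,7-bisphosphatase of the Calvin cycle, read 2223, 2299 and 2173 in sto2, against 2311, 2217 and 2120.4 in wild type. HPR, the peroxisomal hydroxypyruvate reductase of photorespiration, read 2671, 2487 and 2670.0 in sto2, against 2259.9, 2595 and 2479.6 in wild type. Both again overlapped. The log2 differences were -0.10 ± 0.078 for RCA, 0.13 ± 0.096 for PRK, 0.011 ± 0.072 for SBPASE and 0.095 ± 0.083 for HPR (SE). The lowest adjusted p among them was 0.612 in limma.

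Pigment synthesis held 3 of the named genes. AT1G74470, geranylgeranyl reductase, which reduces the side chain of chlorophyll, read 2719, 2894 and 2831 in sto2, against 3095, 2863 and 2634 in wild type. LIL3:1 and LIL3:2 encode light-harvesting-like proteins that anchor that reductase in the thylakoid. LIL3:2 read 847, 856 and 873 in sto2, against 939.6, 926 and 1014 in wild type, and LIL3:1 read 973, 908 and 1026 in sto2, against 893, 891 and 911 in wild type. LIL3:2 was lower on every sto2 array, while the LIL3:1 readings of sto2 were mostly higher with 1 sto2 array inside the wild-type range. Their log2 differences had opposite signs, -0.16 ± 0.072 and 0.11 ± 0.075 (SE), with adjusted p of 0.39 and 0.588 in limma, and the difference between the 2 genes was not tested. Over the 20 photosynthesis genes together, 8 averaged higher and 12 averaged lower in sto2, and the median of their log2 differences was -0.035. Their share of the summed signal of all ranked genes was 4.26% ± 0.0862 in sto2 and 4.33% ± 0.076 in wild type (SD, n = 3 each), a gap below 1 SD.

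Redox proteins made up 4 of the named genes and metabolism outside the Calvin cycle 8. PRXR1, a peroxidase, read 2805, 2794 and 3061 in sto2, against 2790.2, 2777 and 2694 in wild type, higher on each sto2 array, at a log2 difference of 0.066 ± 0.073 (SE). The chloroplast thioredoxins ATHM2 and THX had log2 differences of -0.079 and -0.13, and the glutaredoxin GRXC2 had -0.055, with overlapping genotypes in each. Of the metabolic genes, 5 averaged higher and 3 lower in sto2, with a median of 0.11. THIC (AT2G29630, chromosome 2), which makes the pyrimidine part of thiamine in the chloroplast, read 1985, 1798 and 1990.2 in sto2, against 1266, 1635 and 1652 in wild type. FDH, mitochondrial formate dehydrogenase, read 1290.3, 1342 and 1373 in sto2, against 1088, 1283 and 1181 in wild type. SAMDC, S-adenosylmethionine decarboxylase of polyamine synthesis, read 2038, 1900.3 and 2022 in sto2, against 2073, 2363 and 2407 in wild type. THIC and FDH were higher, and SAMDC lower, on every sto2 array, and none passed the test (adjusted p in limma 0.281, 0.42 and 0.372). The glycolytic genes GAPC2 and TPI had log2 differences of -0.046 and -0.11, the cytosolic isocitrate dehydrogenase cICDH 0.10, cytochrome c CYTC-1 0.12 and the beta-glucosidase BGLU44 0.28, all with overlapping genotypes.

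The remaining named genes spread over cell maintenance, wall and transport. In protein turnover the ubiquitin-conjugating enzyme UBC28, the vacuolar protease APA1, the chloroplast Clp protease subunit CLPP4 and the autophagy protein ATG8F had log2 differences between -0.17 and 0.076, 1 above 0 and 3 below. ATG8F read 1294, 1139 and 1216 in sto2, against 1332, 1313 and 1477 in wild type, lower on each sto2 array. In the cytoskeleton and wall group TUA6, an alpha-tubulin, read 1312, 1300.3 and 1556 in sto2, against 1262, 1174 and 1141 in wild type. COB, a protein that orients cellulose, read 994, 988 and 982 in sto2, against 1212, 1079.9 and 1101 in wild type. TUA6 was higher and COB lower without overlap, whereas TUB5, a beta-tubulin, overlapped at -0.17 ± 0.092 (SE, log2). SWEET11, which exports sucrose to the phloem, read 1212, 995 and 1112 in sto2, against 702, 1087 and 1049.7 in wild type, and its wild-type replicate 1 was the lowest reading of the 6. The exchanger gene AT1G53210 (NCL) had a log2 difference of 0.049 ± 0.16 (SE), which became -0.13 without wild-type replicate 1. The dehydrin AT1G54410 (HIRD11), DI19 and the defensin-like LCR69 had log2 differences of -0.026, -0.12 and 0.10 with overlapping genotypes. Of 7 genes with other names, CCL read 3789.9, 4019 and 4806 in sto2, against 3533, 3631 and 3635 in wild type and ECS1 2211, 2316 and 2148 in sto2, against 2308, 3113 and 2904 in wild type. CCL, in place 11, was higher on every sto2 array (log2 0.22 ± 0.10, SE), and ECS1 overlapped through wild-type replicate 1 (log2 -0.31 ± 0.12, SE). CP5 and ACYB-2 were lower on every sto2 array, at -0.18 and -0.10, while AILP1, LrgB and OEP16-3 overlapped at -0.15, -0.097 and -0.16.

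Among the first 10 places, 3 loci had no descriptive name. AT2G26500 averaged 4516 ± 80.8 in sto2 and 4477 ± 125 in wild type, AT2G25510 averaged 3833 ± 264 in sto2 and 3988 ± 179 in wild type, and AT1G51400 averaged 3669 ± 236 in sto2 and 3918 ± 109 in wild type (SD, n = 3 each). All 3 overlapped between genotypes, with log2 differences of 0.013, -0.058 and -0.096. The 4 genes with the smallest differences of all were also locus names only. AT1G51200, AT3G47070, AT5G02240 and AT4G20150 each differed by less than 0.01 in size on the log2 scale (-0.00086, -0.0018, 0.0032 and -0.0059), and each changed sign under at least 1 alternative setting.

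Across all 200 genes, none passed an adjusted p of 0.05 in limma, where 0.127% of all 22746 probe sets passed (0.0572% higher and 0.0703% lower in sto2). At an unadjusted p under 0.05 there were 31 of the 200 (15.5%), 9 higher and 22 lower in sto2, against 14.1% of all probe sets (6.65% higher and 7.46% lower). The share is near that of the whole array. Of the 800 genes ranked directly below the 200, 20.88% had an unadjusted p under 0.05 (9% higher and 11.88% lower). Most differences were small: 168 genes (84%) differed by less than 0.25 and 196 (98%) by less than 0.5 on the log2 scale, against 82.05% and 97.1% of all probe sets. The SD of the log2 differences was 0.20 over the 200 genes and 0.22 over all probe sets, with medians of -0.025 and -0.0081. The added 16 shrinks log2 differences and SDs of dim probe sets more than those of the 200 genes. Comparisons with all probe sets and with the other ranked genes depend on it. The SD of the log2 differences was 0.12 over the first 50 genes and 0.24 over the 800 genes ranked directly below the 200. The median SD among replicates was 0.083 in sto2 and 0.11 in wild type for the 200 genes, 0.089 and 0.12 for those 800, and 0.11 and 0.14 for all other ranked genes.

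**Figure D2:**
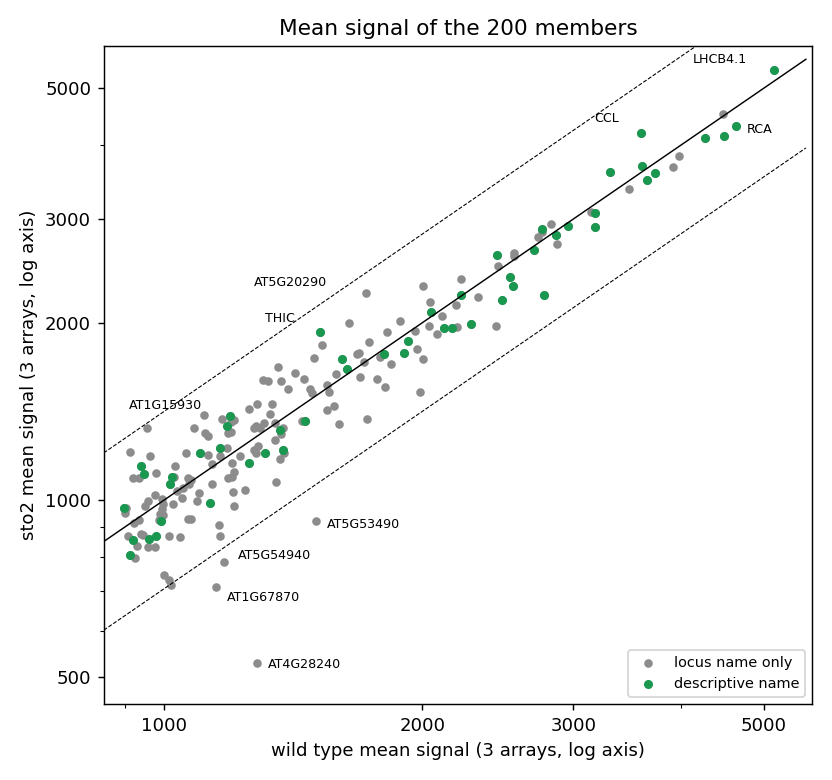
Mean signal in sto2 (vertical) against wild type (horizontal) for the 200 genes, both axes logarithmic and each mean over 3 arrays; green points carry a descriptive name, the solid line marks equal means and the dashed lines a log2 ratio of 0.5 either way. Photosynthesis genes such as LHCB4.1 and RCA lie at the bright end near the line, and AT4G28240, AT1G67870, AT5G53490 and AT5G54940 lie clearly below the lower dashed line.

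Readings of the genotypes did not overlap for 50 of the 200 genes (25%), 12 higher and 38 lower in sto2, against 19.2% of all probe sets (9.01% higher and 10.2% lower). Of the 800 genes ranked directly below the 200, 29% did not overlap (13.88% higher and 15.12% lower). The count in each direction moved with the choice of genes. When the 200 brightest genes were taken by sto2 signal instead, 21 were higher and 23 lower without overlap, and by the mean of all 6 arrays 16 were higher and 31 lower. The median log2 difference moved likewise, at -0.025 for the genes chosen in wild type, 0.03 for those chosen in sto2 and 0.0012 for those chosen on all arrays.

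The gene with the smallest p was AT5G53490 (chromosome 5), with 987, 852 and 928 in sto2, against 1638, 1416 and 1457 in wild type. Its sto2 readings lay far below all wild-type readings, at a log2 difference of -0.69 ± 0.093 (SE) and an adjusted p of 0.0662 in limma. AT5G11420 read 695, 693 and 767 in sto2, against 1054, 972 and 1032 in wild type (log2 -0.50 ± 0.078, SE). AT5G54940 read 904, 693 and 754 in sto2, against 1161, 1179 and 1181 in wild type (log2 -0.58 ± 0.11, SE). Both sets were again apart, with adjusted p of 0.0807 and 0.107 in limma. Over the alternative settings the adjusted p in limma ran from 0.0179 to 0.288 for AT5G53490, from 0.0327 to 0.308 for AT5G11420 and from 0.0413 to 0.355 for AT5G54940. It was below 0.05 in 4 settings for AT5G53490, in 2 for AT5G11420 and in 1 for AT5G54940. All 3 are known here by locus only.

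The largest difference among the 200 was that of AT4G28240 (chromosome 4), which read 503, 651 and 432 in sto2, against 1764, 1271 and 815 in wild type. All sto2 readings were lower, but the wild-type readings themselves spread widely, and the log2 difference was -1.21 ± 0.28 (SE) with an adjusted p of 0.154 in limma. AT1G67870 read 832, 617 and 689.7 in sto2, against 927, 1361 and 1163 in wild type (log2 -0.67 ± 0.17, SE). The other genes with the smallest p on the lower side were AT4G02530, AT5G45350, AT3G61260, AT2G23120 and AT1G52870, with log2 differences of -0.32, -0.41, -0.32, -0.40 and -0.47. No lower gene among these 10 had a descriptive name.

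Choice by wild-type signal favours genes that read lower in sto2, so sizes in the opposite directions are not compared. AT5G43830 read 1732, 1641 and 1666 in sto2, against 1285, 1341 and 1445 in wild type, the smallest p on the higher side (log2 0.31 ± 0.076, SE; adjusted p 0.172 in limma). It leads the 10 higher genes with the smallest p among those without overlap. Of these, AT4G27090, AT2G37220, AT2G16660, AT1G77940 and AT5G47030 had log2 differences of 0.27, 0.26, 0.22, 0.30 and 0.099. The other 4 of these 10 were the named genes THIC, TUA6, CCL and FDH, at 0.35, 0.21, 0.22 and 0.17. AT1G15930, AT3G62870 and AT5G20290 were higher on average but overlapped, at 0.48, 0.41 and 0.37. Their unadjusted p in limma was 0.0215, 0.0258 and 0.0263, against 0.178 for AT5G47030. Differences ran between -1.21 and 0.48 over the 200 genes, between -0.69 and 1.55 over the 200 brightest in sto2, and between -1.21 and 0.75 over the 200 brightest on all 6 arrays.

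**Figure D3:**
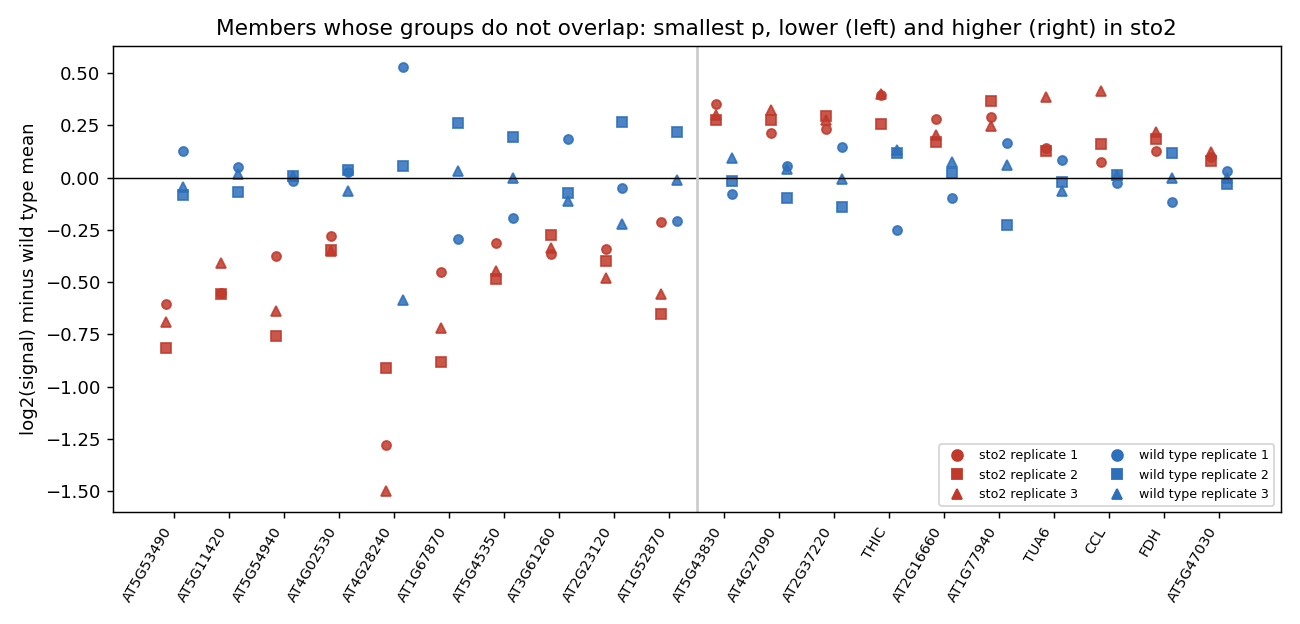
log2(signal) of single arrays minus the wild-type mean for the 10 lower (left) and 10 higher (right) genes with the smallest p among those whose genotypes do not overlap; sto2 is red, wild type blue, and the marker shape gives the replicate number. AT4G28240 reaches lowest and has the widest wild-type spread of these genes.

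The ranking itself was largely kept in sto2. Of the 200 genes, 180 were also among the 200 brightest of sto2. In narrower slices, 90 of the first 100 in wild type were in the first 100 of sto2. Likewise 46 of the first 50 were in its first 50, and 8 of the first 10 in its first 10. LHCB4.1 stood in place 1 in both genotypes. Of the 20 genes that left, 16 had a wild-type place beyond 150, and the farthest was AT4G28240, in place 446 in sto2 against 107 in wild type. Among the genes that entered the first 200 in sto2 were AT3G22240, in place 132 in sto2 and 350 in wild type, and the glutathione transferase GSTU20, in place 157 in sto2 and 363 in wild type. BCAT4, an aminotransferase of glucosinolate synthesis, took place 200 in sto2 and 757 in wild type. These genes had the farthest wild-type places of those that entered, and none passed the test (adjusted p in limma 0.363, 0.25 and 0.251). Readings of AT3G22240 and GSTU20 overlapped between genotypes. AT3G22240 read 627, 1679 and 1205 in sto2, against 663, 608 and 641.5 in wild type. BCAT4 read 928, 795 and 991 in sto2, against 129, 655 and 298.5 in wild type. Together the 200 genes held 24.47% ± 0.398 of the summed ranked signal in sto2 and 24.74% ± 0.302 in wild type (SD, n = 3 each), a gap smaller than either SD.

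Replicates of the 200 genes moved together in part. On sto2 replicate 2 a gene read lowest of the 3 sto2 arrays in 106 of 200 cases (53%), against 31.05% of other ranked genes. On wild-type replicate 1 a gene read highest or lowest of the 3 wild-type arrays in 170 cases (85%), against 72.0% of the other ranked genes. Across the 200 genes the deviation of sto2 replicate 2 from the sto2 mean and that of wild-type replicate 1 from the wild-type mean had a Pearson correlation of 0.719, and 0.233 over the other ranked genes. It was the highest of 9 such array pairs. Others were -0.659 for sto2 replicate 1 with wild-type replicate 1, -0.643 for sto2 replicate 2 with wild-type replicate 3 and 0.596 for sto2 replicate 1 with wild-type replicate 2. Genes share these arrays and the deviations within a genotype sum to 0, so the pairs are not independent and the correlations are a description. AT3G60245 read 1505, 1848 and 1752 in sto2, against 2636, 1339 and 1543 in wild type, and AT3G49910 read 1461, 1825 and 1649 in sto2, against 1971, 1117 and 1176 in wild type. Both were highest of their genotype on sto2 replicate 2 and on wild-type replicate 1, as were AT4G28240, AT3G05560 and LCR69. AT5G38980 read 1236, 1051 and 1278 in sto2, against 607, 1049.9 and 1234 in wild type, and AT1G23130 read 1756, 1232 and 1579 in sto2, against 1569, 2304 and 2089 in wild type. AT5G38980, AT1G23130, AT1G29660, SWEET11 and AT4G00780 were lowest of their genotype on both of those arrays. Both arrays lay at the same end for 108 of the 200 genes (54%), against 31.18% of the other ranked genes. Those other genes were mostly far dimmer, with a median wild-type mean of 28.3 against 1325.8 for the 200. The correlations and shares were not computed for genes of similar brightness, so the pattern is not shown to be particular to the 200. Without wild-type replicate 1, 57 of the 200 genes (28.5%) had an unadjusted p under 0.05, 31 higher and 26 lower, against 16.39% of all probe sets, and genotypes failed to overlap for 111 (55.5%), against 33.67% of all probe sets. The count at an unadjusted p under 0.05 was 17 without wild-type replicate 3 (8.5%, against 13.75% of all probe sets), and 14 without sto2 replicate 2 or without sto2 replicate 3 (7%, against 10.43% and 10.06%). Of 6 control ratios of 3′ to 5′ probe sets, that of the older actin set was 2.05 ± 0.25 in sto2 and 2.57 ± 0.058 in wild type (log2, SD, n = 3 each; exact permutation p = 0.1, adjusted 0.6, where 0.1 is the smallest that 3 against 3 arrays can give). The other 5 ratios differed by between -0.081 and 0.05, and the part of RNA quality in the results was not tested.

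**Figure D4:**
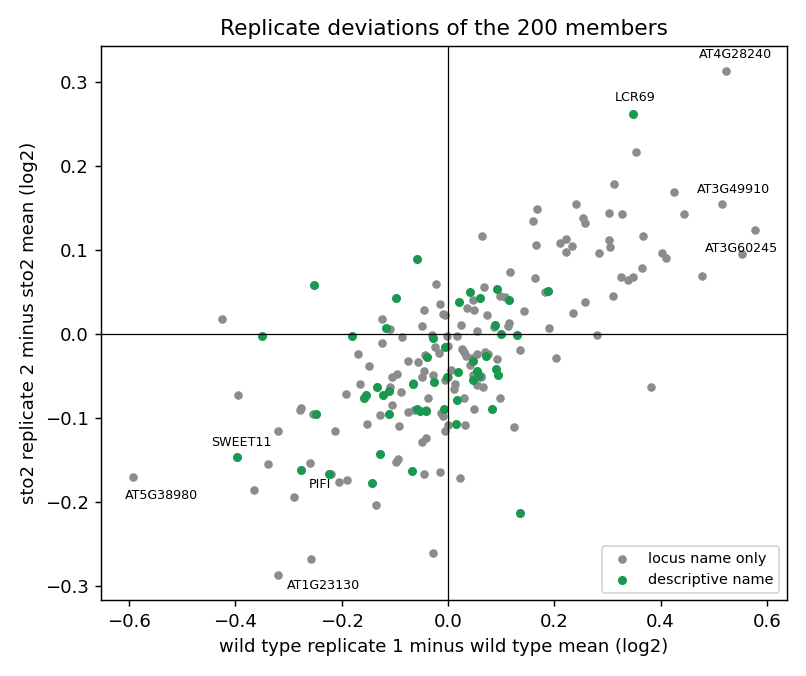
Deviation of sto2 replicate 2 from the sto2 mean (vertical) against deviation of wild-type replicate 1 from the wild-type mean (horizontal), both on the log2(signal + 16) scale, for the 200 genes; green points carry a descriptive name. The points run from the lower left, where AT5G38980, AT1G23130 and SWEET11 lie, to AT4G28240 and LCR69 at the upper right.

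By position, the 200 genes fell on all 5 nuclear chromosomes, making up between 1.29% of the ranked genes on chromosome 2 and 1.69% on chromosome 3. Only 3 pairs were adjacent among RefSeq genes of TAIR10.1. AT2G27710 and AT2G27720 were both higher on average in sto2, OEP16-3 and AT2G42220 both lower, and AT1G29660 and AT1G29670 differed in sign.

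At the limit of the list, the last genes inside were AT5G47030, AT1G09130 and LIL3:1, with mean signals of 969, 951 and 969 in sto2 and of 903, 899 and 899 in wild type. The first genes outside were AT1G49750, MAB1 and AT1G18060, with 728, 855 and 702 in sto2 and 895, 894 and 888 in wild type. The limit falls in a run of nearly equal wild-type means.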

How the data were processed

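RNA of leaves 3 to 6 from 3 sto2 and 3 wild-type samples had been hybridised to single-colour Affymetrix arrays. The authors deposited 1 linear signal intensity per probe set and array, by a summary method not given in the sources used here. Groups and replicate numbers were taken from the labels. The array's 64 control probe sets were left out, and the other 22746 entered a fit without a replicate block, on log2(signal + 16), in limma 3.58.1 (R 4.3.3). P-values were adjusted by Benjamini-Hochberg over all of them, with a threshold of 0.05, and measure the spread between these samples. The fit was tested on simulated data. Detection calls were not used here.

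Probe sets were named through GEO's platform annotation, which can be old. It gave 1 gene for 13513 probe sets, several for 503 and none for 8730. RefSeq genes of TAIR10.1 supplied chromosomes, neighbours and synonyms, and the array's own build is not stated in the labels. The members and lists were chosen with earlier results of these data known. A keyword rule on gene names reached few of the 200 genes, so roles were assigned by hand to the 51 named ones after the names were seen. The text names LHCB4.1, PSAE-1, RCA and PRK, the 10 brightest genes, the named genes by role, the 10 genes in each direction with the smallest p among those without overlap, the 4 with the largest SD in each genotype, the 4 with the smallest difference and the genes on either side of the limit. The genes at the ends of the pattern shared by 2 arrays, and AT1G15930, AT3G62870 and AT5G20290, were picked after their values were seen. Alternatives covered normalization, dim probe sets, variance prior, array weights, replicate block, pseudocount, each array left out and the choice of genes. Promoter and protein sequences were not analysed here.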

Additional observations from a re-analysis of the deposited data

How the results depend on the processing

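The absence of a call among the 200 genes held in limma under most settings. Leaving out the dimmest 50% of probe sets called 3 of them (AT5G53490, AT5G11420 and AT5G54940) and gave 227 probe sets called over the whole array. An intensity trend with a robust prior called 1 and 72, array weights 1 and 70, and a pseudocount of 64 called 2 and 83. The array as a whole had 29 calls, which became 17 with a pseudocount of 1, 2 with the replicate number as a block, and between 5 and 22 with 1 array left out. The 31 genes at an unadjusted p under 0.05 became 14 with a pseudocount of 1 (7%, against 11.5% of all probe sets). They became 46 with a pseudocount of 64 (23%, against 15.19%) and 43 with array weights (21.5%, against 15.63%). There were 12 among the first 100 genes (12%) and 71 among the first 400 (17.75%). With 1 array left out the count lay between 14 and 57 (7% to 28.5%, against 10.06% to 16.39% of all probe sets). The highest count came without wild-type replicate 1, when 111 genes had genotypes without overlap, and over the 6 settings with 1 array left out that count lay between 62 and 111, while the share over all probe sets rose to between 26.69% and 33.67%. With the replicate number as a block 15 genes (7.5%) had an unadjusted p under 0.05, against 11.39% of all probe sets. The labels do not say that a number marks a shared batch, and deviations of same-numbered arrays correlated at -0.23, -0.14 and 0.073 over all probe sets, so the numbers were not taken as pairs. The median log2 difference of the members, -0.025, became -3.8e-05 under quantile normalization, 0.030 with genes ranked in sto2 and 0.0012 with genes ranked on all 6 arrays. Its range with 1 array left out was -0.036 to -0.0035. Of 80 named genes that were followed over the settings, 19 took the opposite sign under some setting. With quantile normalization they were 0.0056 for AT1G51200, 0.019 for AT1G54410, 0.015 for AT1G74470, 0.0089 for AT4G20150, -0.0013 for AT5G02240, 0.0012 for PSB27, 0.031 for PSBW and 0.012 for PSBY. With median centring they were 0.0054 for AT1G51200, 0.0045 for AT3G47070 and 0.00034 for AT4G20150. With array weights they were 0.0025 for AT1G51200, -0.017 for AT1G53210, 0.0085 for AT1G74470, 0.0014 for AT3G47070, 0.034 for AT3G60245 and 0.012 for AT4G20150. With 1 array left out the ranges were -0.10 to 0.015 for APA1, -0.038 to 0.059 for AT1G51200, -0.025 to 0.077 for AT1G52220, -0.13 to 0.15 for AT1G53210, -0.068 to 0.055 for AT1G54410, -0.081 to 0.035 for AT1G74470, -0.0018 to 0.035 for AT2G26500, -0.10 to 0.33 for AT3G05560, -0.057 to 0.081 for AT3G47070, -0.25 to 0.24 for AT3G60245, -0.038 to 0.024 for AT4G20150, -0.018 to 0.033 for AT5G02240, -0.015 to 0.17 for CHL, -0.12 to 0.017 for GRXC2, -0.043 to 0.29 for LCR69, -0.087 to 0.016 for PSB27, -0.049 to 0.014 for PSBW and -0.021 to 0.041 for SBPASE. No other gene among these 80 changed sign under the settings tried. Genes named outside the 80, such as AT1G29660 and AT3G49910, were not followed. The cause of these changes was not tested. The number of arrays limits the precision, and no detection calls were used. Alternatives added after seeing the data were the counts at an unadjusted p and the roles assigned by hand. Roles were assigned to the 200 genes only, so the counts by role were not run for the other rankings or for the first 400.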
